A study of Mus musculus with 32 samples.

Results

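The response to the PPARγ agonist rosiglitazone (RSG) was measured in immature dendritic cells (iDCs) whose loxP-flanked Pparg allele is the target of Cre. The 8 arrays with the genotype Pparg fl/- LysCre and the cell type iDC were taken, out of 32 arrays in the series. They come from 4 mice, numbered 5, 6, 7 and 8, and each mouse gave a vehicle array and an RSG array, so that the arrays pair by mouse. The rule for the arrays uses the genotype and cell type of the sample labels and no measured value.

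The series holds 8 C57Bl/6 mice, 2 cell types and 2 treatments in 8 groups of 4 arrays. Mice 5 to 8 carry a Pparg null allele and a loxP-flanked Pparg allele, and the comparison mice 1 to 4 are Pparg+/- LysCre, with a Pparg null allele and an unflanked one, so that all 8 mice carry the LysCre transgene and lack 1 copy of Pparg from birth. Bone marrow cells were cultured for 9 days with 20 ng/ml GM-CSF and 20 ng/ml IL-4 for iDCs, or with 20 ng/ml M-CSF and 20 ng/ml IL-4 for the alternatively activated macrophages of the same mice. Each culture received 1 μM RSG or its vehicle of DMSO and ethanol. Cre is driven by the lysozyme gene, which is active in cells of the myeloid lineage. No probe could be assigned to Pparg, so how far the gene was lost in these iDCs was not analysed here. The age of the mice is not given in the sources used here.

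PPARγ is a nuclear receptor for fatty acid ligands that binds DNA as a heterodimer with RXR, on direct repeats of the sequence AGGTCA with 1 base between them. RSG is a synthetic ligand of the thiazolidinedione class, and in DCs and macrophages PPARγ is known for the control of lipid handling. IL-4 signals through STAT6, which binds palindromes of TTC and GAA, and IL-4 is part of the culture of both cell types used here. The iDCs of Pparg fl/- LysCre mice address which RSG responses are measured where Pparg is the target of Cre.

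The named genes with the largest fitted RSG differences were Ear1, an eosinophil-associated ribonuclease, and Lhx2, a LIM homeobox transcription factor. Lhx2 was not called in Pparg fl/- iDCs and was detected on none of their vehicle arrays. The 250 bases before a listed start site of each gene are shown because both had higher mean signals with RSG in both genotypes. The sequences are from RefSeq on GRCm38.p6, written 5′ to 3′ on the strand of the gene. They lie at chr14:43819640-43819889 on the minus strand for Ear1 and chr2:38339031-38339280 on the plus strand for Lhx2. For Lhx2 the first of 2 listed starts is shown, and the stretch ends past 38339271, where the gene span given below begins. Capitals mark CCAAT in Ear1 and GGGCGG in Lhx2, searched on both strands.
Ear1: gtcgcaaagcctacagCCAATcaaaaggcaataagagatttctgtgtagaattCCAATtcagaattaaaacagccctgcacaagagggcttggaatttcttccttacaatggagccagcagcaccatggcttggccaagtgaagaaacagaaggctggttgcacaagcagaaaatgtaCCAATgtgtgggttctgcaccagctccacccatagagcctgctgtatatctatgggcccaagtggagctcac
Lhx2: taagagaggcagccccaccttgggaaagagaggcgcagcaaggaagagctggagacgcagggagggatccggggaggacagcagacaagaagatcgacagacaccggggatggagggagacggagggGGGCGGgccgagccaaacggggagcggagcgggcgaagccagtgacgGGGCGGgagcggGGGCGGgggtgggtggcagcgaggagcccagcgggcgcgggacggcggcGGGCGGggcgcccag
The Ear1 stretch held 3 matches to CCAAT and the Lhx2 stretch 4 matches to GGGCGG, motifs that 33.8% and 32.7% of 32851 promoter stretches of the same length hold. Neither stretch held AGGTCA, which 14% of all stretches hold on either strand. A direct repeat of AGGTCA with 1 base between the copies, which contains AGGTCA, is held by 0.0335% of all stretches, and TTC and GAA with 3 or 4 bases between them by 7.02% and 5.85%. None of these was in either stretch. Of the 29 named genes with an unadjusted p under 0.05 by limma, described below, 23 had a promoter entry, with 25 entries in all. AGGTCA was held by 2 of these entries (8%), which belonged to H2-Q7 and Atox1. The entry of C130050O18Rik, which is described below but is not among the 29, also held AGGTCA.

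The arrays give 1 chemiluminescence signal for each probe, which is printed here as log2 after quantile normalization. Detection of a probe required a signal-to-noise ratio (S/N) of at least 3. In pairs of arrays from the same group, the signals correlated at 0.943 to 0.980 across probes. With vehicle, 14568 (mouse 5), 14190 (mouse 6), 15451 (mouse 7) and 15710 (mouse 8) probes were detected, and with RSG 13595, 15277, 15619 and 16683. The number was lower with RSG in mouse 5 and higher in the other mice, and the mean difference of 313.8 ± 950.4 probes (SD, n = 4) was smaller than its spread (p = 0.5, exact two-sided sign-flip test, which cannot go below 0.125 with 4 mice). Of 65 probes for olfactory, vomeronasal and taste receptors, keratins and caseins, 5 were detected on at least 3 vehicle arrays and 5 on at least 3 RSG arrays.

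RSG changed 202 of 16620 tested probes in Pparg fl/- LysCre iDCs, of which 104 (0.626%) were higher and 98 (0.59%) lower. These are 1.22% of the tested probes. A call required a difference of 1.5-fold or more and an adjusted p (Benjamini-Hochberg) under 0.05 in a limma fit over the 16 iDC arrays with the mouse as a block, and 2649 probes (15.9%) had an unadjusted p under 0.05. In bulk RNA, a change in the number of cells of a type and a change in RNA per cell cannot be told apart. All 202 probes differed in the same direction in 4 of 4 mice, and 24.9% of all tested probes did, but the call was made on these same 4 mice and largely fixes this. The vehicle and RSG arrays did not overlap in 136 of them (4.94% of all tested probes). The fitted called changes ran from -3.73 to 4.01 on the log2 scale, with a median size of 1.10 (0.17 over all tested probes). The call largely fixes the overlap and the size in the same way. Both ends of this range rest in part on undetected levels and are not exact sizes. At least 2-fold changes were found in 117 probes (51 higher and 66 lower) and changes of at least 4-fold in 22 (10 higher and 12 lower). Of the 202, 157 were detected on all 8 arrays, 9 were detected on no vehicle array and 8 on no RSG array.

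This count rested on single mice and on the arrays that lent their spread to the test. It was 31 without mouse 5, 45 without mouse 7, 1 without mouse 8 and 0 without mouse 6 (2246 at an unadjusted p under 0.05 by limma), and 78, 118 and 112 without the Pparg+/- mice 2, 3 and 4, whose arrays enter only through the spread. In the 8 arrays alone no probe passed (2238 at an unadjusted p under 0.05 by limma), and without the mouse block 115 passed, of which 88 were among the 202.

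**Figure D1:**
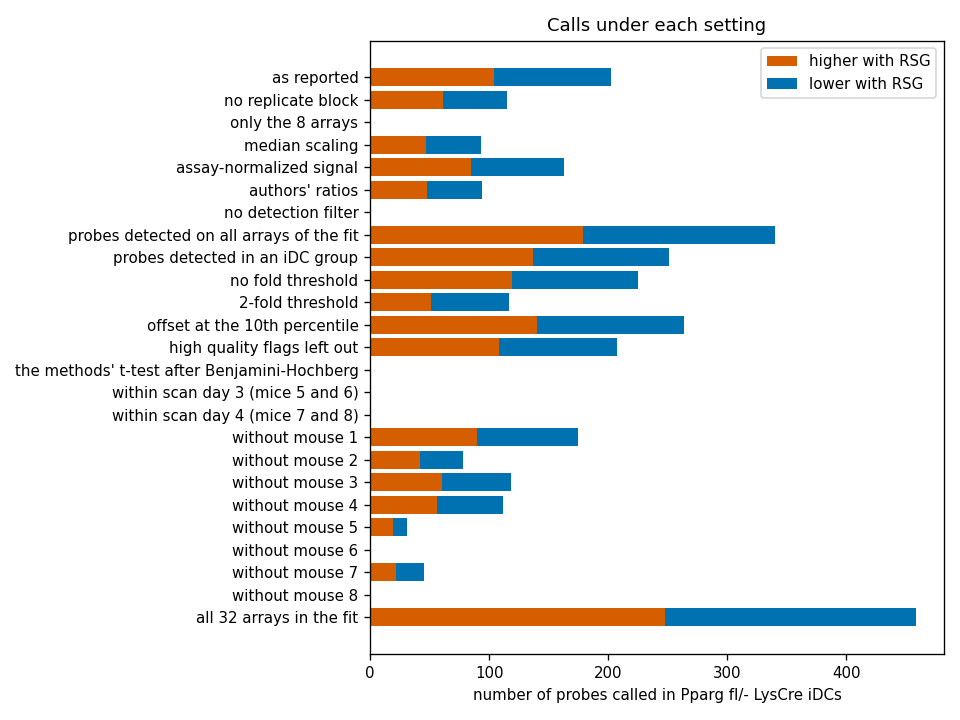
Number of probes called in Pparg fl/- LysCre iDCs (x axis) as reported and under each other setting (y axis), split into probes higher (orange) and lower (blue) with RSG. The count is 202 as reported, 0 in the 8 arrays alone and 459 when all 32 arrays enter the fit.

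Ear1 was the only called probe with a gene symbol, among 167 tested probes with a symbol. It encodes a ribonuclease of the eosinophil-associated family and lies at chr14:43818765-43819639 (GRCm38.p6). With vehicle, its log2 signal was 15.10 in mouse 5, 14.51 in mouse 6, 14.63 in mouse 7 and 15.22 in mouse 8, and with RSG it was 16.82, 17.38, 16.74 and 17.67. All RSG arrays were above all vehicle arrays, and the probe was detected on all 8. The change was 2.29 ± 0.24 (log2, SE, n = 4 mice; adjusted p = 0.0129 by limma), a 4.88-fold rise found in 4 of 4 mice. It was 2.30 in mice 5 and 6 and 2.28 in mice 7 and 8, which were scanned on separate days. Ear1 belongs to a family of near-identical genes, and which members the probe binds was not analysed here. Ear1 passed no longer without mouse 6 (2.09, adjusted p = 0.0667 by limma), without mouse 8 (2.23, adjusted p = 0.0708 by limma) or in the 8 arrays alone (adjusted p = 0.102 by limma).

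Ear1 is also 1 of 7 genes on the list of eosinophil markers, and the other genes on that list had no probe with a symbol, so that the eosinophil list could be read from Ear1 alone. Of the 7 erythroid markers, Hba-a1 (alpha-globin) and Eraf (its chaperone) were tested. Hba-a1 ran from 8.57 to 11.09 on the vehicle arrays and from 7.23 to 11.00 on the RSG arrays, with a difference of -0.06 ± 0.40 (log2, SE), and Eraf was detected on 2 vehicle arrays and on no RSG array. The 14 dendritic cell markers and the lists for macrophages, neutrophils, mast cells and basophils, B cells, T and NK cells, stroma and adipocytes had no probe with a symbol, so the labelled cell type was not checked against its markers.

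**Figure D2:**
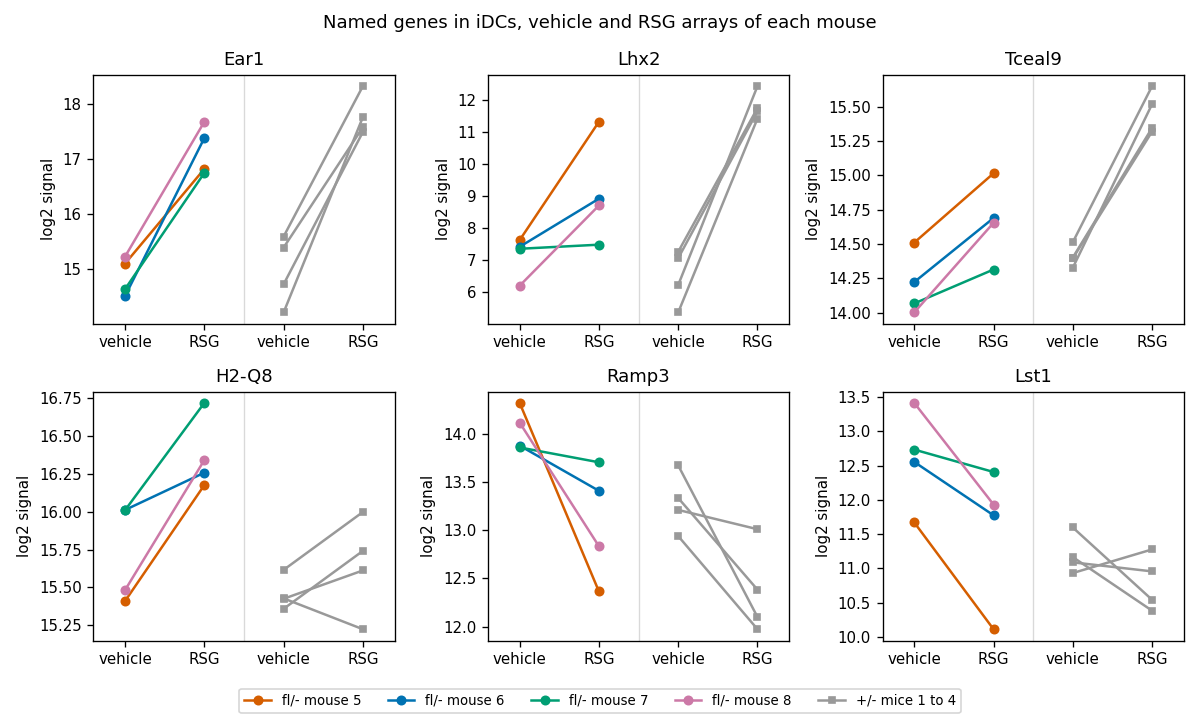
Log2 signal (y axis) of 6 named genes on the vehicle and RSG arrays of Pparg fl/- LysCre iDCs (circles, 1 color per mouse) and Pparg+/- LysCre iDCs (gray squares), with lines joining the arrays of a mouse and a separate y scale for each gene. Ear1 is higher with RSG in every mouse of both genotypes, whereas Lhx2 reaches 7.49 to 11.32 in Pparg fl/- mice and 11.42 to 12.43 in Pparg+/- mice.

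The largest changes were in probes whose identifiers, gene models of the array's design, could not be paired with a symbol. The probe mCG123381.1 had log2 signals of 8.84, 5.81, 6.51 and 6.44 with vehicle in mice 5, 6, 7 and 8 and of 13.03, 11.14, 9.12 and 10.33 with RSG. It was detected on all 4 RSG arrays and on the vehicle array of mouse 5, where the change was 4.19, whereas the vehicle arrays of mice 6, 7 and 8 were not well above background (S/N 0.64 to 0.78). The fitted change of 4.01 (log2, adjusted p = 0.0129 by limma) thus sets 3 of 4 mice against levels within noise and has no exact size. The probe mCG141486 went from 8.70, 8.25, 7.62 and 6.71 with vehicle to 13.44, 11.18, 9.21 and 10.15 with RSG. Since no vehicle array detected it, only a bound on the mean rise over the 4 mice can be given, at least 9.04-fold (adjusted p = 0.0382 by limma). This bound concerns the undetected vehicle level alone. It equals the fitted change of 3.18 ± 0.52 (log2, SE) and leaves out that SE. Single mice lay between 1.59 in mouse 7 and 4.75 in mouse 5 on the log2 scale. In both probes mouse 5 had the highest and mouse 7 the lowest RSG signal of the 4 mice.

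The largest fall was in mCG130175.1, which was detected on all 4 vehicle arrays and on 1 RSG array. Its log2 signals were 11.52, 11.29, 11.24 and 10.79 with vehicle and 6.10, 7.94, 8.61 and 7.26 with RSG, and the fitted change was -3.73 (adjusted p = 0.0206 by limma), in which 3 RSG levels are within noise (S/N 1.08 to 2.11). The probe mCG9377.2 fell by 3.09 ± 0.28 (SE; adjusted p = 0.0122 by limma), from 13.45, 13.54, 14.33 and 14.78 to 9.76, 11.11, 11.38 and 11.49, and was detected on all 8 arrays. None of these 4 probes passed the threshold without mouse 6 or without mouse 8, where their changes ran from -3.86 to 4.04. Without mouse 5 only mCG9377.2 passed, and mCG141486 passed with no mouse left out other than mouse 1. Where the array holds several tested probes for an identifier, they can be set against each other: 22 such identifiers had a called probe, 19 of them had all their probes moving the same way, and 5 had 2 probes called, both in the same direction. Over all 927 identifiers with several tested probes, 60.7% had all probes on the same side of 0.

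**Figure D3:**
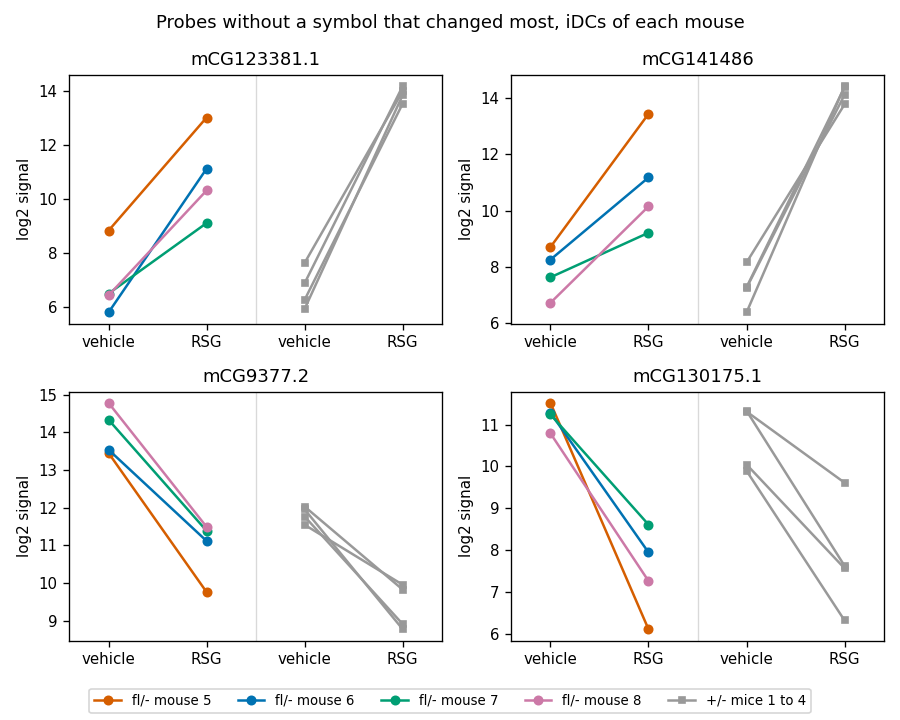
Log2 signal (y axis) of the probes without a symbol that rose most (upper row) and fell most (lower row), on the vehicle and RSG arrays of Pparg fl/- LysCre iDCs (circles, 1 color per mouse) and Pparg+/- LysCre iDCs (gray squares), joined by mouse, with a separate y scale for each probe. The rising probes end at 9.12 to 13.44 in Pparg fl/- and at 13.55 to 14.44 in Pparg+/- iDCs with RSG.

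Among the 167 tested probes with a symbol, 29 (17.4%, against 15.9% of all tested probes) had an unadjusted p under 0.05, 19 with higher and 10 with lower signals. Ear1 is 1 of these, and the other 28 did not pass the threshold for a call, so that their values are given as differences only. Of the 29, 19 differed by less than 0.5 on the log2 scale, and 26 had the same sign in 4 of 4 mice, as did 24.9% of all tested probes. The choice by p on these same mice largely fixes the shared sign.

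Lhx2 had the largest fitted difference after Ear1, a rank that is not exact since no vehicle array detected Lhx2. It lies at chr2:38339271-38369737 and encodes a transcription factor known from the development of the forebrain, limbs and hair follicles. Its log2 signal was 7.63, 7.42, 7.36 and 6.21 with vehicle in mice 5, 6, 7 and 8, all not well above background with S/N between -0.29 and 0.96, and 11.32, 8.92, 7.49 and 8.71 with RSG, with S/N of 8.30, 4.55, 1.35 and 4.09. It was thus detected with RSG in mice 5, 6 and 8 but not in mouse 7. The fitted difference was 1.95 (log2; adjusted p = 0.147 by limma) and 1.38 without mouse 5, and since it sets detected against undetected levels it has no exact size.

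Genes of antigen presentation and cytokine signaling were among those with small differences. H2-Q8, a nonclassical class I molecule, had log2 signals of 15.41, 16.01, 16.01 and 15.48 with vehicle and 16.18, 16.26, 16.72 and 16.34 with RSG. Its groups did not overlap and the difference was 0.65 ± 0.14 (SE; adjusted p = 0.0726 by limma). H2-Q7, a close relative, differed by 0.23 ± 0.10 (SE; adjusted p = 0.312 by limma), and the 2 genes are similar enough that probes may bind both. These 2 were the tested members of the 34 genes listed for MHC and antigen presentation, and none was called. Tnfsf13, which encodes the B cell survival cytokine APRIL, differed by 0.30 ± 0.08 (SE; adjusted p = 0.126 by limma), and its vehicle arrays (14.06 to 14.49) lay just below its RSG arrays (14.49 to 14.70), which meet at the second decimal. Of the 40 listed inflammasome, cytokine and receptor genes, Tnfsf13, Tlr7 and Nlrp3 were tested and none was called. Tlr7, a sensor of single-stranded RNA, differed by 0.04 ± 0.14 and Nlrp3, the inflammasome sensor, by 0.07 ± 0.25 (log2, SE).

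Lst1, a small leukocyte protein, had the lowest difference of the 29, with log2 signals of 11.67, 12.55, 12.73 and 13.42 with vehicle and 10.11, 11.78, 12.41 and 11.93 with RSG. It was lower in 4 of 4 mice, least in mouse 7 and most in mouse 5, and the difference was -1.04 ± 0.28 (SE; adjusted p = 0.131 by limma). Lst1 was not detected on the RSG array of mouse 5 (S/N 2.94), so the size there is not exact. Ramp3, a subunit of adrenomedullin receptors, had signals of 14.32, 13.88, 13.86 and 14.12 with vehicle and 12.36, 13.41, 13.70 and 12.83 with RSG, and its groups did not overlap. Its difference of -0.97 ± 0.31 (SE; adjusted p = 0.193 by limma) came mostly from mice 5 and 8, and it was -0.64 without mouse 5. Bcl2a1b, an antiapoptotic BCL2 family member with near-identical copies, differed by -0.43 ± 0.10 (SE; adjusted p = 0.0993 by limma), and the Wnt inactivating enzyme Notum by -0.60 ± 0.24 (SE; adjusted p = 0.275 by limma), which was -0.28 without mouse 5. Notum was not detected on the RSG array of mouse 5 (S/N 2.65).

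Tceal9, a protein of the transcription elongation factor A-like family, had log2 signals of 14.51, 14.22, 14.07 and 14.00 with vehicle and 15.02, 14.69, 14.31 and 14.65 with RSG. The difference was 0.47 ± 0.09 (SE; adjusted p = 0.0602 by limma), and the RSG array of mouse 7 lay within the range of the vehicle arrays. The other differences above 0 were 0.56 for Glce, an epimerase of heparan sulfate synthesis, 0.47 for Tbc1d16, a Rab GTPase-activating protein, 0.34 for Tvp23b, a Golgi membrane protein, 0.31 for Copz2, a coatomer subunit, and 0.31 for the adhesion molecule Cd99. Jun, a subunit of AP-1, differed by 0.28, Rtl6 by 0.64, Tmem254a by 0.36, Sowahc and Fam83g by 0.32 each, Tspyl2 by 0.24 and Zkscan17 by 0.23. Rtl6 differed most in mouse 5 (1.13), where it was not detected with vehicle (S/N 1.28) or RSG (S/N 2.43), and by -0.28 in mouse 7. Glce was at 0.35 and Tmem254a at 0.22 without mouse 8. The vomeronasal receptor Vmn1r236 was detected on the RSG array of mouse 5 only, so that its difference has no size beyond noise. The remaining lower genes were Trim59 (-0.57), C130026I21Rik and Rnf169 (-0.35 each), Crip1 (-0.32), Rnaset2b (-0.28) and the copper chaperone Atox1 (-0.21). Of the 41 listed PPARγ targets and lipid handling genes only Sgms2, a sphingomyelin synthase, was tested, and it differed by -0.02 ± 0.12 (log2, SE). None of the 18 genes of alternative activation and none of the 24 cell cycle genes had a probe with a symbol.

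The second question was how the RSG response of Pparg fl/- LysCre iDCs compares with that of Pparg+/- LysCre iDCs, which share no array with them. RSG changed 1291 probes (7.77%) in Pparg+/- LysCre iDCs in the same fit, 634 higher (3.81%) and 657 lower (3.95%), against 202 in Pparg fl/- LysCre iDCs. Under median scaling the Pparg+/- split was 740 higher and 462 lower. The Pparg+/- count was 869 to 1339 with any 1 mouse left out, whereas in Pparg fl/- iDCs it was 0 to 175. Of the 202 probes, 136 were also called in Pparg+/- iDCs, which is 67.3% of the Pparg fl/- calls and 10.5% of the Pparg+/- calls, and all 136 went the same way (65 higher and 71 lower). Counting those not called as well, 187 of the 202 (92.6%) differed in the same direction in Pparg+/- iDCs, as did 58.9% of all tested probes. Over the 202 probes, the median change in the Pparg fl/- direction was 1.10 in Pparg fl/- and 1.13 in Pparg+/- iDCs, where the first value is the one by which the probes were called. The 136 shared probes had the larger change in Pparg+/- iDCs in 96 cases, and the 66 other probes had a median of 0.86 in Pparg fl/- and 0.33 in Pparg+/- iDCs. As these 66 were not called in Pparg+/- iDCs, their smaller median there is largely fixed by the choice.

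Read from the other side, the 1291 probes called in Pparg+/- iDCs differed in the same direction in Pparg fl/- iDCs in 1068 cases (82.7%), with a median change of 0.36 in that direction against 1.04 in Pparg+/- iDCs, by which they were called. The 607 Pparg+/- calls under 2-fold had a median of 0.24 in Pparg fl/- iDCs, the 511 calls from 2-fold to under 4-fold a median of 0.46, and the 173 larger ones a median of 1.02 against 2.48 in Pparg+/- iDCs. Of these 173, 90.8% had the same direction and 48 were called in Pparg fl/- iDCs. The median over the 1291 probes was above 0 in each Pparg fl/- mouse, at 0.55 in mouse 5, 0.31 in mouse 6, 0.22 in mouse 7 and 0.37 in mouse 8, and it ran from 1.02 to 1.10 in the Pparg+/- mice. Across all 16620 probes the changes in the 2 genotypes had a Pearson's r of 0.40, a description in which probes are not independent replicates.

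**Figure D4:**
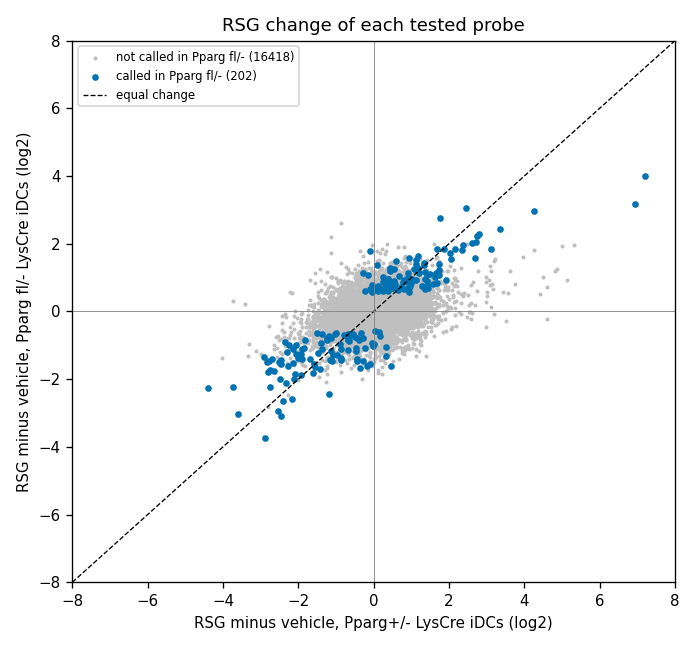
RSG minus vehicle on the log2 scale of each of 16620 tested probes in Pparg+/- (x axis) and Pparg fl/- LysCre iDCs (y axis). The 202 probes called in Pparg fl/- iDCs are blue, the others gray, and 187 of the 202 lie on the same side of 0 in both genotypes.

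The difference in RSG effect between the genotypes was tested as an interaction and passed for 71 probes (0.427%; 2606 at an unadjusted p under 0.05). The effect was higher in Pparg fl/- iDCs for 39 and lower for 32, and 66 of the 71 were called in Pparg+/- iDCs whereas 3 were called in Pparg fl/- iDCs. The signs of the effects were opposite in 35 of the 71. As the probes were called on this difference and nearly all in Pparg+/- iDCs too, which genotype has the smaller change is largely set by the calls. With 1 of mice 1, 2, 3, 4, 6, 7 or 8 left out the count was 0 to 3 (2099 to 2392 at an unadjusted p under 0.05 by limma), and without mouse 5 it was 148. The interaction split into 3 higher and 27 lower probes under median scaling, where the median of all probes was -0.11.

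The only probe with a symbol among the 71 was 5830415G21Rik, a RIKEN transcript. In Pparg fl/- iDCs its log2 signals were 12.30, 11.80, 11.44 and 11.59 with vehicle and 11.88, 11.39, 11.53 and 11.58 with RSG, a difference of -0.19 ± 0.11 (SE; adjusted p = 0.481 by limma) that was not the same in sign over the mice. In Pparg+/- iDCs the vehicle arrays were at 12.46 to 12.88 and the RSG arrays at 11.10 to 11.42, a change of -1.46 on the log2 scale. The effects differed by 1.28 ± 0.16 (SE; adjusted p = 0.0442 by limma), and by 1.18 to 1.35 with any 1 mouse left out, when the adjusted p was 0.0321 without mouse 5 and 0.0955 to 0.130 otherwise.

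For Ear1 the change of 2.29 stood beside 2.81 in Pparg+/- iDCs, and the effects differed by -0.52 ± 0.34 (SE; adjusted p = 0.509 by limma). With vehicle, the Pparg+/- arrays of Ear1 were at 14.72, 15.39, 15.59 and 14.21 and with RSG at 17.49, 17.57, 18.32 and 17.76. Lhx2 was at 5.38 to 7.27 with vehicle and at 11.42 to 12.43 with RSG in Pparg+/- iDCs, at least 30.7-fold higher, and the difference in effect did not pass the threshold (adjusted p = 0.117 by limma). Apart from Ear1, 10 probes with a symbol were called in Pparg+/- and not in Pparg fl/- iDCs, and they are named here after their values were seen. Lhx2, Tceal9 and 5830415G21Rik are given above. Aldh3a1, an aldehyde dehydrogenase, was detected on 4 of 4 RSG arrays and 1 of 4 vehicle arrays in Pparg+/- iDCs, and on 2 of 4 RSG arrays and no vehicle array in Pparg fl/- iDCs. The lectin Lgals7 was likewise detected on 4 RSG arrays and 1 vehicle array in Pparg+/- iDCs, but on 3 arrays of each treatment in Pparg fl/- iDCs, where it differed by 0.17. The acylphosphatase Acyp2 was at 0.16 in Pparg fl/- against 0.99 in Pparg+/- iDCs. The kinase anchor Akap7 was at -0.13 against -0.80 and C130050O18Rik at -0.15 against -0.75. In Pparg fl/- iDCs none of these had the same sign in all mice, and leaving out 1 mouse could turn each sign. The tRNA methyltransferase subunit Trmt61a was at -0.17 against 0.63, with 0.38 in mouse 5 and -0.59 to -0.07 in the other Pparg fl/- mice. Eraf was detected on 4 RSG arrays and 1 vehicle array in Pparg+/- iDCs. In Pparg fl/- iDCs it was detected on 2 vehicle arrays and no RSG array and differed by 0.94, 1.47, -2.04 and -2.23 in mice 5, 6, 7 and 8, so that its direction there is not given by these arrays. The smaller changes of these 10 probes in Pparg fl/- iDCs are largely fixed by how they were chosen.

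The scan day cannot be told apart from the genotype, since each of 4 scan days held both treatments of 2 mice of the same genotype. The RSG effect within a genotype was read within the day: for the 2 mice of each day alone no Pparg fl/- probe passed (1883 and 1624 at an unadjusted p under 0.05 by limma).

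The third comparison was with the IL-4-treated macrophages of the same 4 mice. RSG changed 5 probes (0.0301%) in Pparg fl/- LysCre macrophages, 3 higher (0.0181%) and 2 lower (0.012%), with 1198 (7.21%) at an unadjusted p under 0.05, and 2 of the 5 were among the 202. The macrophage count was 0 without the mouse block (497 at an unadjusted p under 0.05 by limma) and 0 without any of mice 1, 2, 5, 6 and 8 (924 to 1362), 1 without mouse 3 and 2 without mouse 4. Of the 202 probes, 134 were detected on all 8 macrophage arrays and 14 on none. Among the lower ones, 14 were detected on no macrophage vehicle array, so that a fall could not have been measured there. With these included, 119 of the 202 (58.9%) differed in the same direction in macrophages, as did 54.1% of all tested probes. The median change of the 202 in the iDC direction was 0.08 there. By mouse this median was 0.13 in mouse 5, 0.02 in mouse 6, 0.04 in mouse 7 and 0.13 in mouse 8, against 1.21, 1.04, 0.85 and 1.15 in the iDCs, by which the probes were called.

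**Figure D5:**
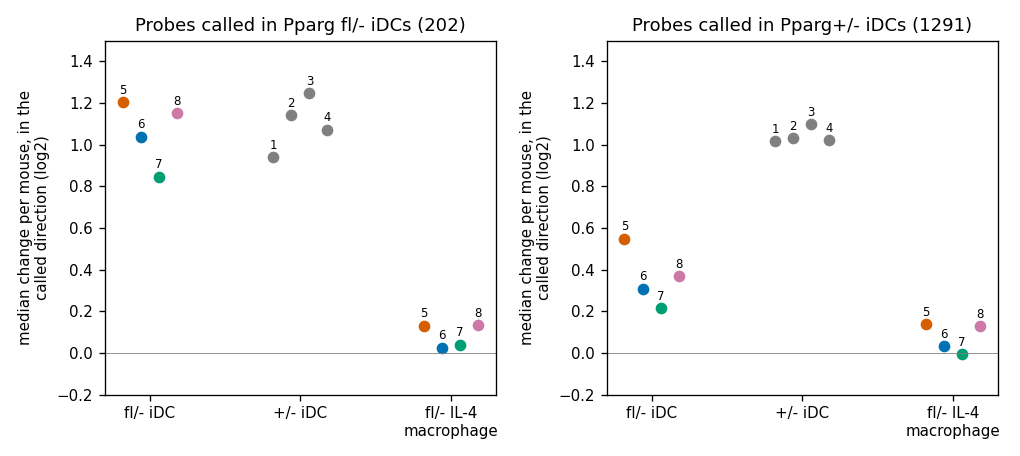
Median RSG minus vehicle per mouse (y axis, log2, in the called direction) over the 202 probes called in Pparg fl/- iDCs (left) and the 1291 probes called in Pparg+/- iDCs (right), for the 3 kinds of culture on the x axis. Numbers name the mice, and on the right the Pparg fl/- iDCs lie at 0.22 to 0.55, below the Pparg+/- iDCs and above the macrophages at -0.01 to 0.14.

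The RSG effect differed between iDCs and macrophages of Pparg fl/- mice for 144 probes (0.866%; 96 higher in iDCs, 0.578%, and 48 lower, 0.289%), of which 83 were among the 202. The split was 67 and 19 under median scaling, where the median difference of all probes was 0.11. Ear1 was 1 of them: its macrophage signals were 17.20, 14.64, 14.59 and 15.24 with vehicle and 17.19, 15.84, 15.08 and 16.58 with RSG, a difference of 0.76 (adjusted p = 0.419 by limma). The Ear1 effects differed by 1.53 between the cell types (adjusted p = 0.0465 by limma). The other 3 of the described probes among the 144, mCG123381.1, mCG9377.2 and mCG130175.1, were detected on no macrophage array (S/N at most 1.72). A fall of mCG9377.2 or mCG130175.1 could not have been measured there, and their calls are no comparison of RSG effects. Of the 144 probes, 10 were detected on no macrophage array and 103 on all 8 iDC and all 8 macrophage arrays. In the Pparg fl/- arrays alone no probe passed, Ear1 included (1694 at an unadjusted p under 0.05 by limma). The count of 144 became 18 without the block of mouse and cell type, 19 without mouse 8, 28 without mouse 6 and 72 to 89 without mouse 2, 3, 5 or 7.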

How the data were processed

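Gene expression was measured on 32 single-color Applied Biosystems chemiluminescence arrays. The authors deposited for each array an intensity signal per probe, an assay-normalized signal, quality flags and the signal-to-noise ratio, a score with no fixed range, per the file headers. The authors' table of ratios, which from its values are signals over a number per array and the probe's median, served as an alternative. The paper states a scaling to the array median and then the gene median for its Affymetrix arrays, and the scaling of the present ratios and the scanner software version are not given in the sources used here. The identifiers of 325 of 33012 noncontrol probes were paired with a symbol, through RefSeq on GRCm38.p6 (311 by accession, 5 by synonym, 1 by symbol) or the supplementary tables (8). Control spots were left out. Where S/N is 1 or less, the listed signal equals its standard deviation for at least 99.8% of probes on each array.

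Log2 signals were quantile normalized over 32 arrays. Probes with S/N of at least 3 on at least 3 of 4 arrays of a group were tested with limma 3.58.1 in R 4.3.3. The iDC effects were fitted on the 16 iDC arrays and macrophage effects on the 16 macrophage arrays, with the mouse as a block. The mouse is given by the sample labels. Cell type differences were fitted on all 32 arrays with each mouse and cell type as a block. The iDC and macrophage effects of a mouse were thus not paired with each other. Deviations from the group means correlated at 0.271 to 0.549 between the vehicle and RSG arrays of a Pparg fl/- mouse in iDCs, at 0.0372 to 0.0745 in Pparg+/- mice and at a median of -0.111 between Pparg fl/- mice. Since such deviations cancel out within a group, the negative value between mice is largely fixed by the values within mice. Bounds on folds set a probe detected on no array of a group at the lowest detected signal of each array, or at its own where higher. Named genes are every called probe with a symbol, every probe with a symbol at an unadjusted p under 0.05, listed genes as counts, genes the paper names for these cells (none of which had a probe with a symbol), and the 2 largest rises and 2 largest falls without a symbol. The members, lists and tests were chosen with earlier results of these data known. The fit was tested on simulated data. Tables and figures were made with Python 3.11.15, numpy 2.4.6, pandas 2.3.3 and matplotlib 3.10.9. Replicates are separate mice, and the number of arrays limits the precision.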

Additional observations from a re-analysis of the deposited data

Results flagged for a closer look

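The RSG change of Notum was -1.54 in mouse 5 and -0.21 to -0.37 in the other Pparg fl/- LysCre mice, a gap of 0.874 of the whole range. Notum was not detected on the RSG array of mouse 5 (S/N 2.65), so the change there sets a detected against an undetected level. This was the only 1 of 45 sets of 4 values in which a mouse lay this far from the others, and chance alone gives about 1 in 20. A test of the difference in RSG effect passed for 71 probes between the genotypes and for 144 probes between the cell types of Pparg fl/- LysCre mice. Among named probes, 5830415G21Rik differed by 1.28 between the genotypes, and between iDCs and macrophages Ear1 differed by 1.53, mCG123381.1 by 4.33, mCG9377.2 by -3.00 and mCG130175.1 by -4.16. The last 3 probes were detected on no macrophage array, so their values set iDC changes against noise. No explanation was tested for these.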

How the results depend on the processing

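For RSG in Pparg fl/- LysCre iDCs, the 202 calls became 115 without the replicate block, 93 under median scaling, 94 with the authors' ratios, 340 among probes detected on all arrays of the fit, 117 at a 2-fold threshold and 459 with all 32 arrays in the fit, a setting chosen after seeing the data. The count was 0 in the 8 arrays alone, without a detection filter (3171 at an unadjusted p under 0.05 by limma), in each scan day alone, and by the methods' t-test with adjusted p (1200 at an unadjusted p under 0.05), which gave 538 unadjusted at 1.5-fold, and it ran from 0 to 175 with a mouse left out. The difference between genotypes gave 30 under median scaling, 30 with the authors' ratios, 19 with the assay-normalized signal, 0 without a detection filter (3120 at an unadjusted p under 0.05 by limma), 372 among probes detected on all arrays, 110 among probes detected in an iDC group, 129 with an offset, 468 with all 32 arrays, 73 without the replicate block (35 shared), and 0 to 148 with a mouse left out. RSG in Pparg+/- iDCs gave 815 without a detection filter, 1948 without a fold threshold, 684 at 2-fold and 869 to 1339 with a mouse left out, and under median scaling 740 were higher and 462 lower, against 634 and 657. In Pparg fl/- macrophages the 5 calls became 0 without the replicate block, in the arrays compared alone (1156 at an unadjusted p under 0.05 by limma), without a filter (2000) and by the methods' t-test after adjustment, 207 by that test unadjusted, 24 among probes detected on all arrays, and 0 to 5 with a mouse left out. The difference between cell types gave 18 without the replicate block, 0 in the arrays compared alone (1694 at an unadjusted p under 0.05 by limma), 86 under median scaling, 86 with the authors' ratios, 41 without a filter, 93 at 2-fold and 19 to 138 with a mouse left out. Under median scaling the median change of all probes was -0.02 for RSG in Pparg fl/- iDCs, 0.09 in Pparg+/- iDCs and -0.13 in macrophages. The mean difference in detected probes stayed above 0 under each setting (56.0 to 742.7). For the genotype difference, the arrays compared alone are those of the fit.

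The log2 changes of the named genes were in the same direction and on the same side of the threshold in 872 of 930 refits. Most of these refits were of genes that were not called and stayed so. A call was lost in 43 refits, all of them of the called probes. Ear1 lost its call in 7 of 23 refits, mCG123381.1 in 8 of 22 and mCG141486 in 13 of 22. The probe mCG9377.2 lost it in 7 of 22 and mCG130175.1 in 8 of 22. A call was gained in 4 refits, of which 2 were for H2-Q8, 1 for Rtl6 and 1 for Ramp3. Signs turned only for genes that were not called: within mice 5 and 6 for Lgals7 (-0.0746) and Eraf (1.21), within mice 7 and 8 for Acyp2 (-0.277), Akap7 (0.0385), C130050O18Rik (0.0119) and 5830415G21Rik (0.0376), and with a mouse left out for Akap7 (-0.237 to 0.0248), C130050O18Rik (-0.289 to 0.0963), Acyp2 (-0.0194 to 0.395) and Eraf (-1.11 to 0.125), which was not detected with RSG. The cause of these shifts was not tested. Probes not detected in a group have noise for a level, so their folds are bounds.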
